A study of Arabidopsis thaliana with 32 samples.

Results

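The 7 loci described here encode the poly(A) polymerases and the nuclear poly(A)-binding proteins of Arabidopsis thaliana. The polymerases are PAPS1 (AT1G17980, chr1:6187465-6191708), PAPS2 (AT2G25850, chr2:11025345-11030808), PAPS3 (AT3G06560, chr3:2044352-2047209) and PAPS4 (AT4G32850, chr4:15849711-15855194). The binding proteins are PABN1 (AT5G51120, chr5:20779327-20781557), PABN2 (AT5G65260, chr5:26080222-26083066) and PABN3 (AT5G10350, chr5:3255236-3257811). Coordinates are those of TAIR10, and PAPS1, PAPS2, PABN2 and PABN3 lie on the minus strand. The members were picked by locus identifier from 32310 loci annotated in both deposited tables. The rule names no expression value, but earlier results of these data were known when the members were chosen. Of the 7, 6 passed the minimum of a mean of 1 FPKM in each table and were tested, and PAPS3 did not pass in either.

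A poly(A) polymerase adds adenosines to the 3′ end that the cleavage and polyadenylation complex has cut on a nascent transcript. In mammals the nuclear binding protein PABPN1 coats the growing tail, stimulates the polymerase and limits the length of the tail, and the PABN proteins are its Arabidopsis relatives. The tail then takes part in export, translation and decay, where cytoplasmic poly(A)-binding proteins and deadenylases act on it.

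RNA sequencing was run on total RNA of whole Col-0 seedlings. Plants had all been raised on MS plates for 8 days at 24 °C with 16 h of light and 8 h of darkness. They were then kept in these long days, or moved to continuous light, for 2 more days by the protocol, while the series' design text gives 1 day and the age label reads 8 days. Each regime had 16 libraries, taken every 3 h from 2 to 47 h, with 1 library per time point. Hours were counted from dawn in long days and from subjective dawn in continuous light. A library of whole seedlings does not tell fewer cells of a type from less RNA per cell. No label says that the libraries came from separate cultures, so p-values measure the spread between these libraries.

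Values are FPKM, fragments scaled by transcript length and library size, which the authors deposited per transcript. A locus value is the sum over its annotated transcripts unless it is said to include transcripts that were assembled from the reads at that locus alone. Library totals were 569534 to 587307 FPKM in long days and 578473 to 622006 FPKM in continuous light, and the read depth behind them is not given. The morning clock gene CCA1 peaked at 3.48 h in long days and at 3.05 h in continuous light. The evening clock gene TOC1 peaked at 15.6 h in long days once assembled transcripts were included (its annotated sum was not called there) and at 14.3 h in continuous light. The green-tissue and root markers were above 0 in every library, with PIN2 at no less than 9.04 FPKM in long days and 7.35 FPKM in continuous light. Of 5 pollen markers, DUO1 was at 0 in all libraries, VGD1 and PPME1 did not exceed 0.0449 and 0.0956 FPKM, GCS1 averaged 0.150 and 0.152 FPKM in long days and continuous light, and ANX1 averaged 2.38 and 2.00 FPKM.

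The 3 binding proteins and PAPS4 were the most abundant members, PAPS1 and PAPS2 were lower, and PAPS3 was listed at 0 in nearly every library. With assembled transcripts included, PABN2 averaged 53.3 ± 7.13 FPKM in long days and 50.8 ± 6.15 FPKM in continuous light (SD, n = 16 each). PABN3 averaged 39.8 ± 5.76 and 31.6 ± 4.19 FPKM, and PABN1 34.8 ± 4.73 and 38.5 ± 6.37 FPKM. Among the polymerases, PAPS4 averaged 34.6 ± 4.29 FPKM in long days and 21.5 ± 2.80 FPKM in continuous light. The means of PAPS1 were 17.3 ± 1.37 and 12.4 ± 1.64 FPKM, and those of PAPS2 13.6 ± 2.82 and 9.91 ± 1.54 FPKM, in the same order of regimes. The 2 tables were made separately, so levels are set side by side with no test between regimes.

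Neighbours in this order were compared within each library. In long days PABN2 exceeded PABN3 in 16 of 16 libraries and PABN3 exceeded PABN1 in 15, while PABN1 and PAPS4 did not separate, with PABN1 the higher in 8 of 16. PAPS4 exceeded PAPS1 in 16 libraries with ranges that did not overlap, and PAPS1 exceeded PAPS2 in 15. In continuous light PABN2 exceeded PABN1 in 16 libraries, PABN1 exceeded PABN3 in 13, and PABN3 exceeded PAPS4 in 16. PAPS4 there exceeded PAPS1, without overlap of ranges, and PAPS1 exceeded PAPS2, each in 16 of 16 libraries. The place of PABN3 above PABN1 in long days rests on 1 assembled transcript, since its annotated sum averaged 32.9 ± 5.67 FPKM.

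Each member's share of its family was then taken library by library. PAPS4 made up 52.8% ± 1.38 of the polymerase sum in long days and 49.0% ± 2.44 in continuous light (SD, n = 16 each). PABN2 made up 41.7% ± 1.37 and 42.1% ± 2.06 of the binding protein sum. The polymerase sum ranged over 53.3 to 79.7 FPKM in long days and 37.2 to 51.2 FPKM in continuous light. The sum of the binding proteins ranged over 102.3 to 157.9 FPKM and 93.9 to 149.1 FPKM, so that the 3 of them together exceeded the highest polymerase sum in every library of both regimes.

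**Figure D1:**
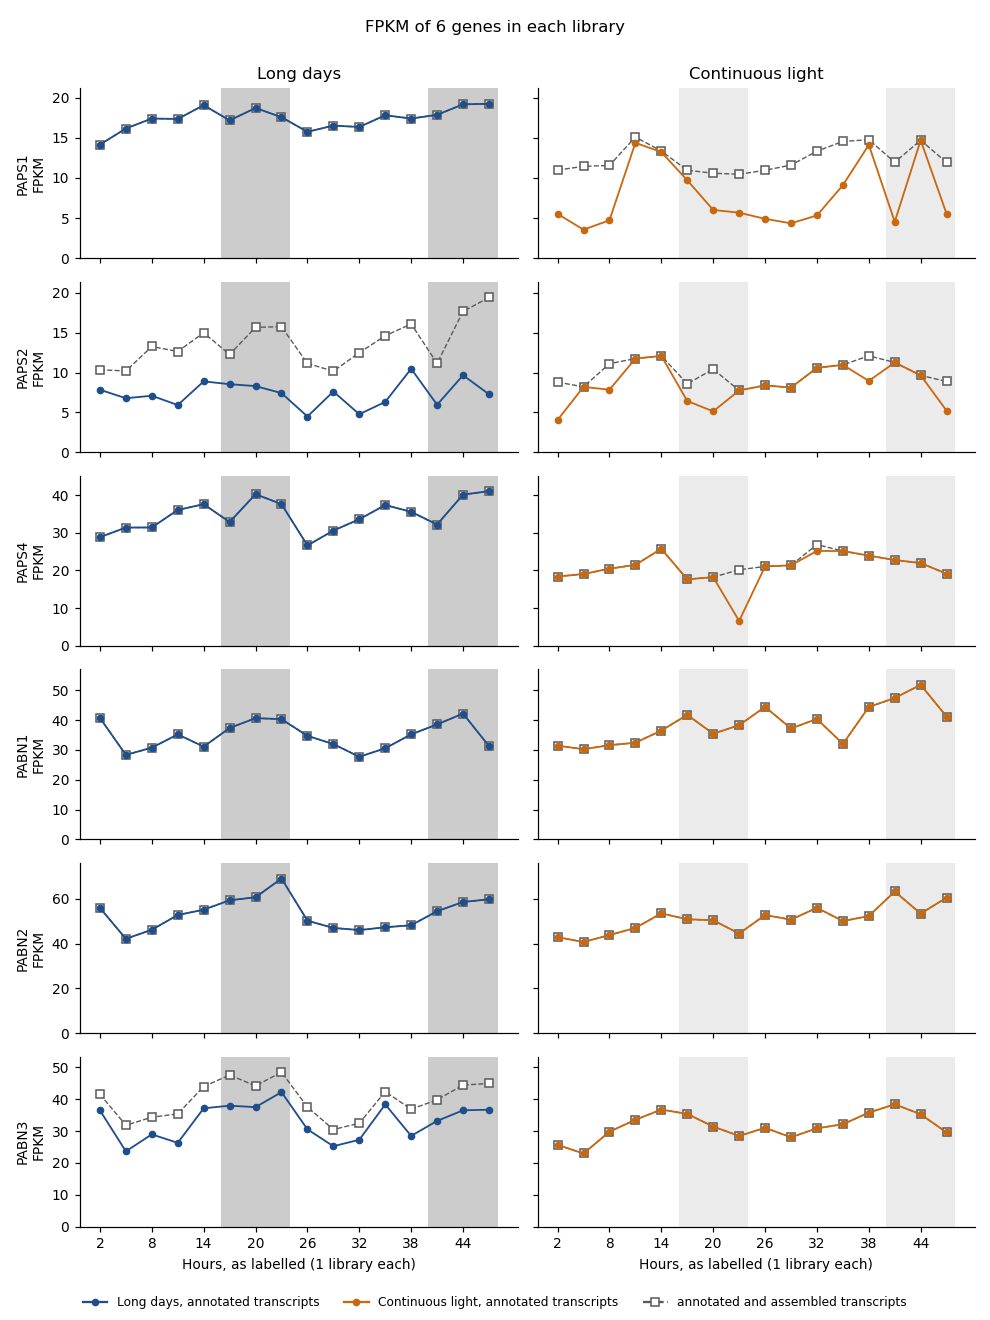
FPKM of the 6 expressed members in each library against the labelled hour, for long days (left) and continuous light (right), with 1 library per point, dark hours shaded dark and subjective night shaded light. Filled circles sum annotated transcripts and open squares add transcripts assembled at the locus; in continuous light the squares of PAPS1 stay between 10.5 and 15.1 FPKM while its circles range over 3.57 to 14.7 FPKM, and PAPS4 drops to 6.58 FPKM at 23 h in the circles alone.

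PAPS3, a polymerase known from pollen, was above 0 in 1 library of each regime, with 0.0312 FPKM at 14 h in long days and 0.0249 FPKM at 20 h in continuous light. It was listed at 0 in the other libraries, and no rhythm or difference was tested for it. The reads behind an FPKM of 0 are not known, so no limit can be set on its level.

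The assembled transcripts changed what the annotated sums of the polymerases show, and so they are given first. In long days the annotation missed 46.2% of the FPKM at PAPS2, in 2 assembled transcripts, and 17.2% at PABN3, in 1. In continuous light 1 assembled transcript held 36.7% of PAPS1, 1 held 14.1% of PAPS2, where it was at 0 in 10 of 16 libraries, and 3 held 4.45% of PAPS4. PABN1 and PABN2 had no assembled transcript in either table, so their values do not depend on this choice. A transcript assembled across PAPS4 and AT4G32760 in long days was left out of both loci, and it was above 0 in 1 library, at 2.83 FPKM.

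Rhythms were tested by fitting a curve with a period of 24 h to log2(FPKM + 1) in limma, with a moderated F test and Benjamini-Hochberg adjustment over all genes tested, and a gene was called at an adjusted p under 0.05. Folds are from peak to trough of that curve on the log2(FPKM + 1) scale, and errors of amplitudes (log2) and peak times are standard errors. In long days 3 of the 6 members were called, against 24.5% of all 18016 genes tested, and the 3 were PABN1, PABN2 and PABN3. In continuous light 3 of 6 were called, against 23% of the 17766 genes, and these were PAPS1, PAPS2 and PABN3. With assembled transcripts included the counts were 3 of 6 in long days (32.1% of all genes) and 2 of 6 in continuous light (28.6%), where PAPS1 was no longer called.

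PAPS1, the polymerase that fills a role of its own in leaf and flower growth, had the smallest coefficient of variation of the tested polymerases in long days, 7.88%. Its lowest, median and highest values were 14.2, 17.4 and 19.2 FPKM in long days, against 3.57, 5.61 and 14.7 FPKM in continuous light. In continuous light the annotated sum stood at 13.2 to 14.7 FPKM at 11, 14, 38 and 44 h and at 4.55 FPKM at 41 h, between high values on either side. Its fitted curve there had an amplitude of 0.60 ± 0.15, a peak at 14.97 ± 0.98 h and a 2.31-fold change (adjusted p = 0.0278, limma). Without the library at 5, 14, 29 or 38 h the adjusted p was 0.0536 to 0.0717.

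The assembled transcript was low in the libraries where the annotated isoform 1 of PAPS1 was high. Isoform 1 ranged over 0.917 to 14.7 FPKM and the assembled transcript over 0 to 8.00 FPKM, and the assembled one was the higher in 7 of 16 libraries. At 11 h isoform 1 had 14.4 FPKM and the assembled transcript 0.719 FPKM, while at 41 h they had 4.55 and 7.41 FPKM. Summed over both kinds, PAPS1 had 10.5, 11.8 and 15.1 FPKM as its lowest, median and highest values in continuous light. The 24 h change of that sum was 1.25-fold with a peak at 12.4 ± 1.16 h, and it was not called (adjusted p = 0.0542). In long days no transcript was assembled there, and the rhythm of PAPS1 was not called either (1.15-fold, adjusted p = 0.137).

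PAPS2, which with PAPS4 forms a pair of related nuclear polymerases, was called in continuous light under both sums. Its annotated values were 4.47, 7.34 and 10.5 FPKM (lowest, median and highest) in long days, and 4.04, 8.29 and 12.1 FPKM in continuous light. In continuous light the values at 11, 14, 35 and 41 h were high and those at 2, 20 and 47 h were low. The annotated curve peaked at 11.9 ± 1.07 h with 1.70-fold (adjusted p = 0.0446), and the curve that includes the assembled transcript peaked at 13.1 ± 0.73 h with 1.38-fold (adjusted p = 0.00336). After libraries were rescaled to equal medians the annotated sum missed the threshold (adjusted p = 0.0627) and the fuller sum, a setting added after seeing the data, passed it (adjusted p = 0.0144). Leaving out any 1 of 11 libraries (2, 5, 11, 14, 20, 29, 32, 35, 38, 41 or 47 h) moved the adjusted p of the annotated sum to between 0.0527 and 0.0991. In long days PAPS2 was not called (1.33-fold, adjusted p = 0.242).

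PAPS4, the most abundant of the polymerases, was not called in either regime. Its lowest, median and highest annotated values were 26.6, 34.6 and 41.03 FPKM in long days, and 6.58, 21.2 and 25.7 FPKM in continuous light. The lowest of these stood apart, at 23 h, where the next lowest night value was 17.6 FPKM. At that hour 2 of the 3 assembled transcripts held 13.6 FPKM, and the locus sum was 20.2 FPKM. The fitted change was 1.21-fold in long days (adjusted p = 0.175), and 1.58-fold in continuous light (adjusted p = 0.146), or 1.24-fold there with assembled transcripts (adjusted p = 0.0842). Without the library at 23 h the amplitude (log2) was 0.16 ± 0.05, against 0.33 ± 0.12 with it.

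PABN2, whose single annotated isoform encodes 220 residues, had the lowest adjusted p of the members for a rhythm in long days. Its lowest value was 42.1 FPKM at 5 h, its median 53.6 FPKM and its highest 69.1 FPKM at 23 h in long days. The 6 dark hours held 54.5 to 69.1 FPKM and the 10 light hours 42.1 to 55.9 FPKM, so that the groups overlapped only between 54.5 and 55.9 FPKM. The fitted peak was at 20.2 ± 0.72 h with an amplitude of 0.22 ± 0.04 and a 1.35-fold change (adjusted p = 0.00525). In continuous light PABN2 had 40.7, 50.8 and 63.3 FPKM as its lowest, median and highest values, and its 1.18-fold curve was not called (adjusted p = 0.279).

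PABN1 had its long-day peak within 1 h of that of PABN2. Its lowest, median and highest values were 27.7, 34.9 and 42.2 FPKM in long days, and 30.2, 37.7 and 51.8 FPKM in continuous light. In long days high values came at 2, 20, 23 and 44 h and low ones at 5 and 32 h. The fitted peak was at 20.1 ± 0.92 h with 1.32-fold (adjusted p = 0.0210). Without the library at 32 h or that at 44 h the adjusted p was 0.0557 to 0.0558. In continuous light the fitted change was 1.304-fold at 19.1 ± 1.32 h, and was not called (adjusted p = 0.113).

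PABN3 was called in both regimes, the only member for which this held with FPKM as deposited. Its annotated values were 23.7, 34.9 and 42.2 FPKM (lowest, median and highest) in long days, and 22.98, 31.2 and 38.4 FPKM in continuous light. The peak was fitted at 19.5 ± 1.02 h in long days, with 1.40-fold (adjusted p = 0.0356), and at 15.6 ± 0.62 h in continuous light, with 1.38-fold (adjusted p = 0.00121). The long-day call was lost without any 1 of 10 libraries (5, 8, 11, 17, 20, 23, 29, 32, 44 or 47 h; adjusted p = 0.0521 to 0.0725), while the continuous-light call held without each of the 16. With its assembled transcript PABN3 changed 1.38-fold in long days, with a peak at 19.3 ± 0.77 h (adjusted p = 0.00569).

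The level of a whole library moved with these hours. The median of log2(FPKM + 1) over all genes tested had an amplitude of 0.07 with a peak at 18.6 h in long days, and of 0.05 at 15.8 h in continuous light. After rescaling to equal medians 1 member was called in long days, PABN2 (1.23-fold, peak 21.0 ± 0.96 h, adjusted p = 0.0339). PABN1 and PABN3 then had fitted folds of 1.21 and 1.27 in long days and missed the threshold (adjusted p = 0.143 and 0.183). In continuous light PAPS1 and PABN3 were called after rescaling (adjusted p = 0.0470 and 0.00752).

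**Figure D2:**
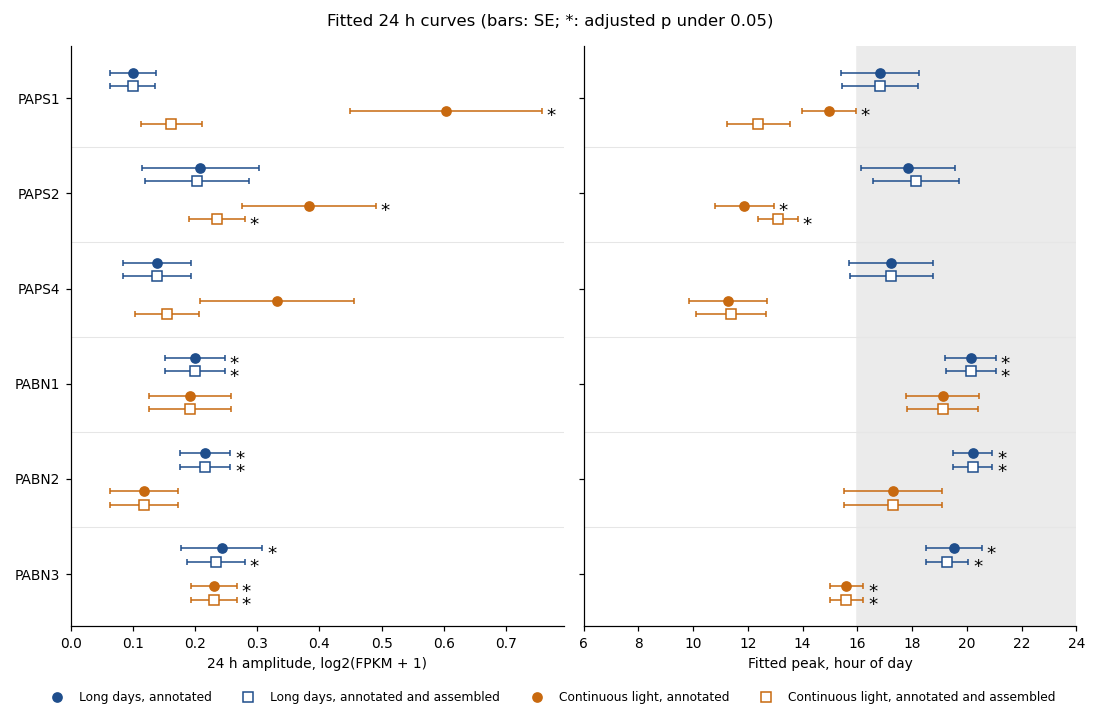
Amplitude of the fitted 24 h curve on the log2(FPKM + 1) scale (left) and hour of its peak (right) for the 6 members, with standard errors as bars, n = 16 libraries per regime, the night hours shaded and asterisks at an adjusted p under 0.05. The amplitude of PAPS1 in continuous light is 0.60 from annotated transcripts and 0.16 with assembled ones, and the peaks of the 3 binding proteins in long days lie between 19.3 and 20.2 h.

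The same curves were then compared between regimes over all 32 libraries, as an interaction, in which a constant offset between the tables cancels. Of the 6 members 0 were called, against 5.05% of 17264 genes (limma), and 3 had an unadjusted p under 0.05. These were PAPS1 (p = 0.0137, adjusted p = 0.128), PABN3 (p = 0.0167, adjusted p = 0.141) and PAPS2 (p = 0.0208, adjusted p = 0.158). With assembled transcripts the lowest adjusted p was that of PABN3, 0.0551. The calls of PABN1 and PABN2 in long days and of PAPS2 in continuous light are thus not shown to be particular to a regime. By annotated sums, PABN3 passed without the long-day library at 35 h (adjusted p = 0.0271). PAPS1 did so without the continuous-light library at 41 h (adjusted p = 0.00752). At that hour its annotated sum was 4.55 FPKM and the sum with its assembled transcript 11.96 FPKM. This transcript ranged over 0 to 8.00 FPKM in continuous light and was absent in long days, so the part missed is not a constant offset. Leaving out single libraries was not tried with assembled transcripts.

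Night was set against day as the 6 libraries at 17, 20 and 23 h of either cycle against the other 10, which are dark and lit hours in long days and subjective ones in continuous light. In long days 1 of 6 members was called, PABN2, which was higher at night, as were 9.57% of all genes. PABN2 averaged 60.3 ± 4.81 FPKM at night and 49.1 ± 4.39 FPKM by day (SD, n = 6 and 10), a difference of 0.29 ± 0.07 in log2 (adjusted p = 0.0101). It held after rescaling to equal medians, at 0.21 ± 0.06 (adjusted p = 0.0459), and without each of the 16 libraries in turn.

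PABN3 averaged 37.4 ± 2.92 FPKM at night and 30.3 ± 5.27 FPKM by day in long days, with overlapping ranges, and missed the threshold (0.31 ± 0.10, adjusted p = 0.0628). With its assembled transcript it passed (0.29 ± 0.08, adjusted p = 0.0217), so that 2 of 6 members were higher at night, against 13.9% of all genes in that setting. Leaving out the library at 2, 14 or 35 h also brought its annotated sum past the threshold (adjusted p = 0.0291 to 0.0432). For PABN1 the difference was 0.23 ± 0.08 (adjusted p = 0.0855), and it passed without the library at 2 h or that at 47 h (adjusted p = 0.0347 to 0.0385). The polymerases were not called in long days (differences of 0.12 to 0.18, adjusted p = 0.186 to 0.538).

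In continuous light 0 of 6 members were called between subjective night and day, against 3.75% of all genes (limma). One had an unadjusted p under 0.05, PABN1 (0.24 ± 0.10, p = 0.0327, adjusted p = 0.235). Differences of the annotated sums were -0.39 ± 0.19 for PAPS4 and -0.24 ± 0.20 for PAPS2 there. Without the library at 23 h that of PAPS4 was -0.14 ± 0.09.

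The difference of the night contrast between regimes was called for 0 of 6 members, against 3.92% of all genes (limma), and 1 had an unadjusted p under 0.05. That was PAPS4, whose night contrast was more positive in long days by 0.57 ± 0.21 (p = 0.0121, adjusted p = 0.142), by 0.32 ± 0.12 without the library at 23 h, and by 0.33 ± 0.12 with assembled transcripts (adjusted p = 0.0988). For PABN1 the difference between regimes was -0.01 ± 0.13.

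**Figure D3:**
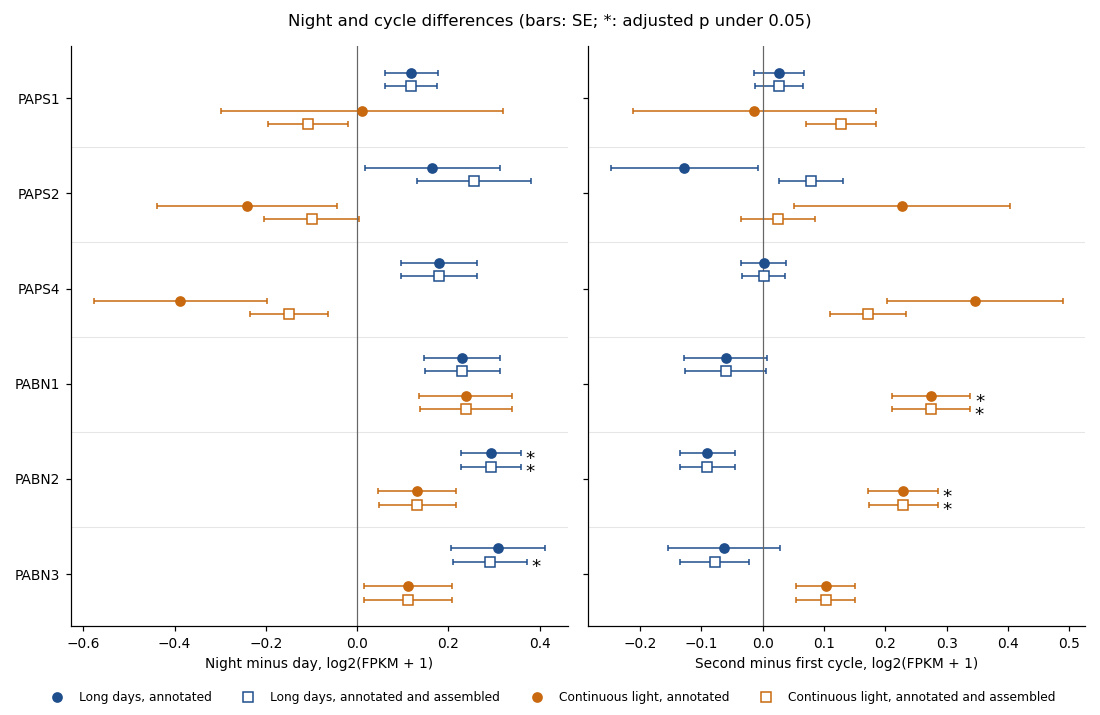
Night minus day (left) and second minus first cycle (right) in log2(FPKM + 1) for the 6 members, with standard errors as bars, n = 16 libraries per regime and asterisks at an adjusted p under 0.05. PABN2 in long days lies at 0.29 in the night contrast, and PABN1 and PABN2 in continuous light lie at 0.27 and 0.23 between cycles.

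The second 24 h (26 to 47 h) were set against the first (2 to 23 h) at matched hours of the day. In continuous light 2 of 6 members were called, PABN1 and PABN2, and both were higher in the second cycle, as were 6.99% of all genes. PABN1 averaged 42.3 ± 6.13 FPKM in the second cycle and 34.7 ± 3.99 FPKM in the first (SD, n = 8 each), and was higher in the second at 7 of 8 hours (0.27 ± 0.06, adjusted p = 0.0243). PABN2 averaged 54.9 ± 4.75 FPKM in the second cycle and 46.7 ± 4.50 FPKM in the first, and was also higher at 7 of 8 hours (0.23 ± 0.06, adjusted p = 0.0301). The cycles overlapped in range for both, at 31.98 to 51.8 FPKM in the second and 30.2 to 41.7 FPKM in the first for PABN1, and at 50.1 to 63.3 and 40.7 to 53.5 FPKM for PABN2.

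Both calls held after rescaling to equal medians (adjusted p = 0.0241 for PABN1 and 0.0447 for PABN2). Each missed the threshold when single libraries were left out. For PABN1 these were the libraries at 2, 8, 20, 26, 32 or 44 h (adjusted p = 0.0541 to 0.0610), and for PABN2 those at 2, 5, 8, 17, 23, 26, 29, 32, 41 or 47 h (adjusted p = 0.0510 to 0.0740). PAPS4 differed by 0.35 ± 0.14 in its annotated sum (adjusted p = 0.141) and by 0.19 ± 0.06 without the library at 23 h (adjusted p = 0.0786). In long days 0 of 6 members were called between cycles, against 12.8% of all genes (limma), and 0 had an unadjusted p under 0.05. The cycle difference was not tested between regimes.

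The annotated isoforms of the 7 loci number 39, with 17 at PAPS4, 9 at PAPS2, 6 at PABN3, 3 at PABN1, 2 at PAPS1 and 1 each at PAPS3 and PABN2. Usage of an isoform was the log2 ratio of its FPKM to the rest of its locus, with 0.5 FPKM added to each, and 14 member isoforms with a mean share of 5 to 95% were tested in each regime. Rhythms of usage were called for 0 of them in long days, against 0.0127% of 15788 isoforms, and for 0 in continuous light, against 0% of 14987 (limma). One had an unadjusted p under 0.05 in each regime. They were PAPS2 isoform 2 in long days (p = 0.0253, adjusted p = 0.708) and PAPS4 isoform 12 in continuous light (p = 0.00628, adjusted p = 0.767). These ratios left out assembled transcripts. With them included, 0 of 13 were called in long days and 0 of 15 in continuous light, against 2 of 25366 and 0 of 23352 isoforms. PAPS1 isoform 1 (p = 0.018, adjusted p = 0.871) and its assembled transcript (p = 0.011, adjusted p = 0.776) had unadjusted p under 0.05 in continuous light.

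The FPKM of PABN3 split between isoforms that differ at the 3′ end, as annotated isoforms of PAPS2 and PAPS4 also do. Isoform 1 has 6 exons and encodes 217 residues. Isoform 2 keeps the last intron of isoform 1 (chr5:3255723-3255811, 89 nt), encodes 202 residues and ends 202 nt earlier. The junction is shown because the retained intron supplies the stop codon of isoform 2. The run spans chr5:3255792-3255821 on the minus strand of TAIR10 and reads 10 bases of the exon and then 20 of the intron, with the stop codon, which starts at intron base 2, in capitals.
PABN3 last intron, 5′ splice site: atggatacgggTAAgtttaaactctgcata

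Isoform 1 of PABN3 averaged 10.7 FPKM in long days and 16.0 FPKM in continuous light. Isoform 2 averaged 18.8 FPKM in long days and 12.3 FPKM in continuous light. The transcript assembled in long days has both ends of isoform 2 (chr5:3255438-3257773) and 5 exons as well, with 1059 nt against 1006 nt. As shares of all transcripts at the locus, isoform 2 made up 47.1% and isoform 1 27.0% in long days, with 17.2% in the assembled transcript, and isoform 2 38.8% and isoform 1 50.5% in continuous light. Isoform 2 was the higher of the pair in 13 of 16 libraries in long days and in 7 of 16 in continuous light. The isoforms traded places from library to library: at 8 h in continuous light isoform 2 had 3.57 and isoform 1 23.2 FPKM, while at 35 h they had 22.1 and 7.63 FPKM. How reads were divided between overlapping isoforms is not stated, and shares were not compared between the tables, which differ in their assembled transcripts. The 4 other isoforms of PABN3 encode 96 residues and averaged 1.11 FPKM or less each in either regime.

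PABN1 and PABN2 showed no such split. Isoform 1 of PABN1 (227 residues) held 99.7% of the locus in long days and 99.9% in continuous light, and PABN2 has 1 annotated isoform. At PAPS1, isoform 1 (713 residues) held 99.96% of the long-day FPKM. Isoform 2 of PAPS1 (586 residues) keeps an intron of isoform 1 (chr1:6191008-6191106, 99 nt) and lacks an exon of 63 nt, and it reached 4.42 FPKM at 32 h in continuous light with a median of 0.00888 FPKM. At PAPS2, isoform 3 (786 residues) held 34.8% of the locus in long days and 50.3% in continuous light. At PAPS4, isoform 1 (741 residues) held 22.6% and 17.5%, and its 17 isoforms encode 716 to 765 residues.

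**Figure D4:**
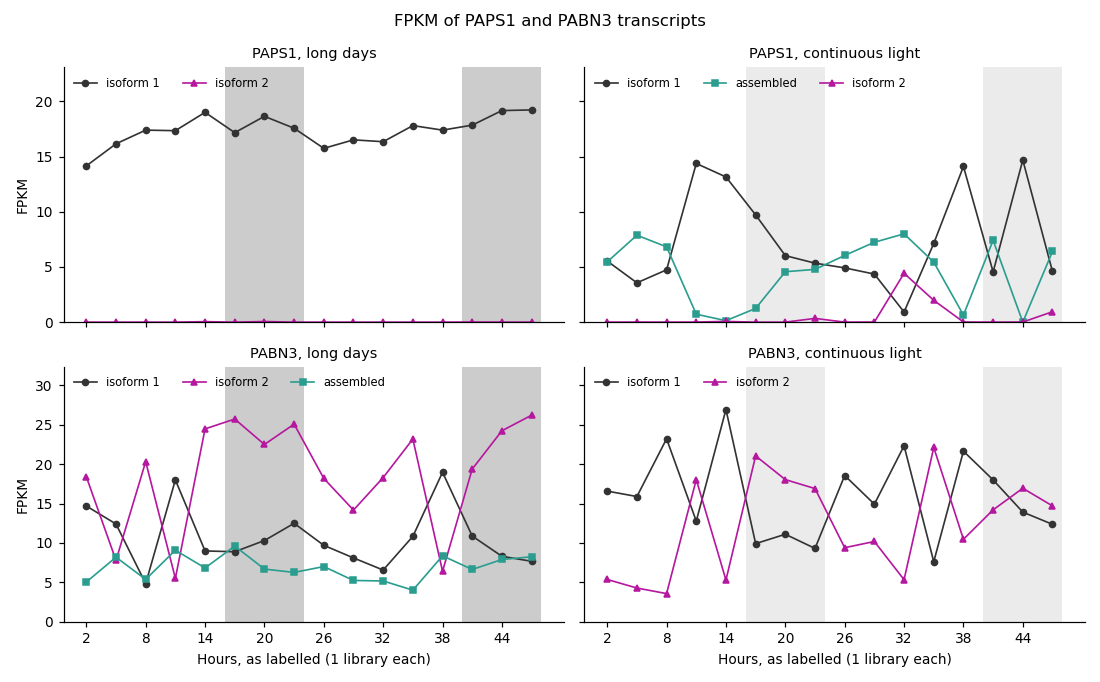
FPKM of PAPS1 transcripts (top) and of PABN3 isoforms 1 and 2 (bottom), with the transcript assembled at each locus where there was one, against the labelled hour, for long days (left) and continuous light (right), with 1 library per point. PAPS1 isoform 1 stays between 14.2 and 19.2 FPKM in long days and alternates in continuous light with the assembled transcript, which ranges over 0 to 8.00 FPKM.

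The other genes of tail making and tail decay were followed in 3 lists, by the sum of annotated transcripts. Of 23 genes for cleavage and polyadenylation factors 22 were tested. Rhythms in long days were called for 4 of the 22, against 24.5% of all genes, with CPSF73-II, a relative of the endonuclease that cuts the transcript, having the lowest adjusted p (1.59-fold, peak 14.9 h, adjusted p = 0.000975). The median amplitude of the list (log2) was 0.17, against 0.20 over all genes. With assembled transcripts 11 of 22 were called in long days, against 32.1% of all genes. In continuous light 0 of 22 were called from annotated transcripts, against 23% of all genes, and 1 with assembled ones, against 28.6%, CFIS1 (1.36-fold, adjusted p = 0.0417).

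At night in long days, 2 factors of this list were called, against 11.7% of all genes in either direction. The count was 4 of 22 with assembled transcripts, against 16.7%. FIPS3, a relative of the polymerase-binding protein Fip1, fell by 0.40 ± 0.07 in log2 (adjusted p = 0.00255), and SSU72, a phosphatase, rose by 0.66 (adjusted p = 0.0339). The night contrast of SSU72 was also more positive in long days than in continuous light, by 0.84 ± 0.22 (adjusted p = 0.0255). That was 1 call of 22, against 3.92% of all genes. Between the cycles in continuous light, 4 factors were called, against 14.7% of all genes in either direction, and all 4 were higher in the second, led by CSTF50, a subunit of the cleavage stimulation factor (0.84 ± 0.13, adjusted p = 0.00594). With assembled transcripts 9 of 22 were called, against 19% of all genes, all higher in the second, led by ESP4 (0.40 ± 0.07, adjusted p = 0.00579), while CSTF50 was not among them. The median difference of the list was 0.15 from annotated transcripts, against 0.00 over all genes.

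Of 8 cytoplasmic poly(A)-binding protein genes 3 were tested, PAB2, PAB4 and PAB8. PAB2 and PAB4, 2 of the 3, were called as rhythmic in long days, against 24.5% of all genes. PAB4 had a 1.26-fold change and a peak at 16.7 h (adjusted p = 0.0131). In continuous light 1 of 3 was called, against 23% of all genes. It was PAB8, with 1.72-fold and a peak at 14.7 h (adjusted p = 0.000292). PAB2 and PAB8 were higher in the second cycle of continuous light, as were PABN1 and PABN2. That is 2 of 3, against 14.7% of all genes in either direction, and PAB2 differed by 0.29 ± 0.04 (adjusted p = 0.00340). In long days PAB2 was lower in the second cycle, by 0.15 in log2 (-0.15 ± 0.04, adjusted p = 0.0328). That is 1 of 3, against 12.8% of all genes in either direction. With assembled transcripts 2 of 3 were called in long days, against 15.3%, in opposite directions. PAB8 differed by 0.20 ± 0.05 (adjusted p = 0.0333) and PAB2 by -0.14 (adjusted p = 0.036). In continuous light 3 of 3 were called in that setting, all higher in the second cycle, against 19% of all genes in either direction.

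Of 10 genes for deadenylation and nuclear RNA decay 9 were tested within each regime. Rhythms were called for 2 of the 9 in long days, against 24.5% of all genes, and for 1 in continuous light, against 23%. The night contrast in long days was called for 1 of 9, against 11.7%, and the rhythm difference for 1 of 8, against 5.05%. The deadenylase gene CAF1A was called as rhythmic in long days (2.59-fold, peak 17.7 h, adjusted p = 0.0148), was higher at night (0.83 ± 0.26, adjusted p = 0.0492) and differed in rhythm between regimes (adjusted p = 0.0367). RRP6L2, of the nuclear exosome, was called too in long days, and MTR4, an RNA helicase of the exosome, in continuous light (1.26-fold, peak 15.5 h, adjusted p = 0.0441). With assembled transcripts 2 of 10 were called in long days, against 32.1% of all genes. MTR4 was then among them (1.35-fold, peak 19.1 h, adjusted p = 0.00799) and RRP6L2 was not. In that setting MTR4 was also higher at night in long days (0.28 ± 0.08, adjusted p = 0.0199), 1 of 2 calls among 10, against 16.7%. Both genes called between the cycles of continuous light, RRP6L2 and HEN2, were higher in the second, RRP6L2 by 0.52 ± 0.07 (adjusted p = 0.00302). That is 2 of 9, against 14.7% of all genes, and with assembled transcripts it was 4 of 10, against 19%. The median amplitude of the list was 0.11 in long days, against 0.20 over all genes, and 0.17 in continuous light, against 0.17.

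Across the 32 libraries, after rescaling to equal medians and centring within each table, PABN1 and PABN2 had a Pearson r of 0.63, PABN2 and PABN3 of 0.64, and PABN1 and PABN3 of 0.41. The annotated sums of PAPS1, PAPS2 and PAPS4 had pairwise r of 0.21 to 0.31, and of 0.52 to 0.64 with assembled transcripts. The libraries share their depth and their assembly, so these values are a description. Of 11370 genes compared in the same way, the 3 most like PABN1 were AT2G20450, AT5G04800 and RPL18 (r = 0.75 to 0.77). Those most like PABN2 were AT5G13780, SHS1 and ASF1B (r = 0.70 to 0.73), and those most like PABN3 were scpl35, SPDS1 and AT2G15128 (r = 0.70 to 0.71). By annotated sums, for PAPS1 they were SKB1, NS2 and AT5G40490 (r = 0.60 to 0.64), and for PAPS2 AT3G27610, UPF3 and AT3G46960 (r = 0.61 to 0.77). CID4 was most like PAPS4 (r = 0.91, Spearman's rho 0.75), followed by CS26 (r = 0.81, rho 0.27) and ASN3 (r = 0.80, rho 0.05). For ASN3 the r within long days was -0.10, against 0.88 within continuous light, the regime that holds the low PAPS4 value at 23 h. With assembled transcripts EBS5 was most like PAPS4 (r = 0.80) and AT1G04480 most like PABN1 (r = 0.86). AT2G47410 was then most like PAPS1 (r = 0.85) and AT3G18230 most like PAPS2 (r = 0.85). RBP47A was then most like PABN3 (r = 0.75) and eIFiso4G1 most like PABN2 (r = 0.74). None of the genes named from annotated sums for PAPS1, PAPS2, PAPS4 or PABN3 was among their 3 most alike in that setting. AT2G20450 and AT5G04800 remained among those of PABN1, and AT5G13780 among those of PABN2.

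The 250 bases before the start of each member's leading isoform were read from the TAIR10 assembly and searched on both strands for 4 motifs of clock and light or growth control. The evening element AAAATATCT and the G-box CACGTG were in 0 of 7 member windows, against 2.47% and 7.86% of 17222 gene windows of the same length. The CCA1-binding site AAAAATCT was in 2, those of PAPS2 (bases -234 to -227 from the start) and PAPS4 (-101 to -94), against 6.82% of windows. The telo box AAACCCTA was in 1, that of PAPS2 (-33 to -26), against 3.94%. The PAPS2 window is counted from isoform 3, which starts at chr2:11030627. Other annotated isoforms of PAPS2 start as far up as chr2:11030808, so the telo box lies within their span. A match is a description of letters and not evidence of binding. The windows of PABN2, whose long-day rhythm was called under each of the 8 other settings, and of PAPS4, the most abundant polymerase, are shown, with the CCA1-binding site of PAPS4 in capitals.
PABN2 chr5:26083067-26083316, minus strand: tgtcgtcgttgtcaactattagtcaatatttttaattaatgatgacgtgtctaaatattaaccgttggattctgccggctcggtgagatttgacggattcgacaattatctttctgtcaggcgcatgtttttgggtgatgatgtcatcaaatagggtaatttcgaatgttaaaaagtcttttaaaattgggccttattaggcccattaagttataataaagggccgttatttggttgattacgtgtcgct
PAPS4 chr4:15849461-15849710, plus strand: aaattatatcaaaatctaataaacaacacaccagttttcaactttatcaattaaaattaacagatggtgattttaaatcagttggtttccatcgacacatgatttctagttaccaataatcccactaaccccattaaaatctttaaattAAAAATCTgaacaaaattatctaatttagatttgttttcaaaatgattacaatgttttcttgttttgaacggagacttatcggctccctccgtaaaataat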

How the data were processed

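The authors deposited 1 table per regime of transcript FPKM, with 1 column per library, per the file headers. Per the submitters' processing notes TAIR10 served as the genome. The sources used here do not give the aligner, the quantifier or the strandedness. The long-day table holds 70053 transcripts (53490 annotated) and that of continuous light holds 66968 (53613 annotated). Of the others, 10785 and 8858 were assembled at 1 locus, and those assembled across several loci or at none were left out of gene values. Read depth is not given, so no counting interval or floor was set.

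FPKM were summed over the transcripts named by a locus. Values were tested as log2(FPKM + 1) with limma 3.58.1 in R 4.3.3 (lmFit, eBayes with an intensity trend), over all genes averaging 1 FPKM or more in the tables used, with Benjamini-Hochberg adjustment and a threshold of 0.05. Folds on this scale understate the change of low genes. The fits were the 24 h cosine and sine terms, night against day, second against first cycle with hour of day as a factor, and interactions with regime. Isoform usage used 0.5 FPKM as pseudocount. The rhythm and night fits within each regime were tried on simulated data with independent noise for each gene. These data held no shift shared by a whole library, so they do not test its effect. Tables and figures were made with Python 3.11.15, pandas 2.3.3 and matplotlib 3.10.9.

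All 7 members, their isoforms, the called gene of lowest adjusted p of each pathway list, and for each member the genes of highest Pearson r were to be named, and further list members were named after their values were seen. The members, lists and tests were chosen with earlier results of these data known. Same-hour libraries of the regimes were not paired. Alternatives were rescaling to equal medians, quantile normalization, a pseudocount of 0.1 FPKM, no filter, assembled transcripts, no intensity trend, a linear time term, isoform shares of 1 to 99%, each library left out, and a block by hour. Assembled transcripts together with equal medians were added after seeing the data.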

Additional observations from a re-analysis of the deposited data

Results flagged for a closer look

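Among 34 distinct groups of 6 night or 10 day libraries (6 members, both regimes, both sums, with sums that are equal counted once), 3 held 1 library that lay far from the rest by Dixon's criterion, which chance exceeds in about 1 in 20 groups. All 3 came from continuous light and from polymerases. The annotated sum of PAPS4 was 6.58 FPKM at 23 h, where the next lowest night value was 17.6 FPKM and the sum with assembled transcripts was 20.2 FPKM. The annotated sum of PAPS2 was 4.04 FPKM at 2 h, with the next lowest day value at 7.84 FPKM and the fuller sum at 8.79 FPKM. The fuller sum of PAPS1 was 14.7 FPKM at 44 h, with the next highest night value at 11.96 FPKM, and at that hour the assembled transcript of the locus was at 0.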

How the results depend on the processing

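No called effect of a member changed sign under any setting. Some effects that were not called did. The night contrast of PAPS1 in continuous light, 0.01, was -0.0178 with equal medians, -0.0181 with quantiles, -0.11 with assembled transcripts, -0.0853 with a linear time term and -0.13 with assembled transcripts and equal medians, and -0.18 to 0.12 without single libraries. Its cycle difference in continuous light, -0.01, was 0.13 with assembled transcripts, 0.12 with equal medians as well, and -0.18 to 0.12 without single libraries. The cycle difference of PAPS2 in long days, -0.13, was 0.0784 and 0.10 in the same settings. The night difference of PABN1 between regimes, -0.01, was 0.15 with a linear time term and -0.0577 to 0.0494 without single libraries. Without single libraries that of PAPS1, 0.11, ranged over -0.0019 to 0.30, and the cycle difference of PAPS4 in long days over -0.0161 to 0.0173.

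For long-day rhythms, rescaling to equal medians called 1 member and 2870 genes, and quantile normalization 1 and 2920, against 3 and 4408 with FPKM as deposited, and assembled transcripts with equal medians, added after seeing the data, called 1 member. For the long-day night contrast 1276 and 1282 genes were called under those scalings, against 2105, and 2 members with assembled transcripts. For the night contrast in continuous light quantile normalization called 430 genes and a linear time term 1262, against 667. Assembled transcripts gave 1403 genes for the rhythm difference and 1109 for the night difference, against 871 and 676. Isoform shares of 1 to 99% gave 7 calls in long days and 2 in continuous light. The cause of these changes was not tested.

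With the hour as a replicate block, the night difference was called for 1089 genes and the rhythm difference for 601, with 0 members in either. Residuals of same-hour libraries correlated by -0.080 to 0.056, with 0 of 16 pairs over 0.1, and 1 of 16 correlated best with its own hour. Whether same-hour libraries shared their harvest or handling was not tested.

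Leaving out 1 library at a time gave 1 to 3 members and 3492 to 4407 genes for long-day rhythms, 1 to 3 and 3439 to 4379 for rhythms in continuous light, and 0 to 1 and 604 to 1100 for their difference. The night contrast gave 1 to 3 and 1260 to 2294 in long days, 0 and 287 to 851 in continuous light, and 0 and 434 to 834 for the difference. Cycles gave 0 and 1481 to 2078 in long days, and 0 to 2 and 1472 to 2727 in continuous light. Isoforms gave 0 member calls in either regime, with 2 calls among all isoforms in long days and 0 in continuous light.

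With 1 library per hour and unknown depth, the scatter around each curve is the error, and a member that missed the threshold is not shown to be constant.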
